A study of Bos taurus with 6 samples.

Results

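The miR-2284 and miR-2285 families are 2 related groups of bovine miRNAs, and 20 of the 779 miRNAs listed in the count table of cow milk extracellular vesicles (EVs) carried one of their names. A member was any listed miRNA whose name begins with bta-miR-2284 or bta-miR-2285, which gave 5 miR-2284 and 15 miR-2285 members. They were 20 of the 276 known miRNAs, those with a Bos taurus (bta) name of miRBase, while the other 503 listed miRNAs were predicted from the reads. The name alone decided which miRNAs were members, and no measured value entered that rule. The rule was set with earlier results of these data known. All 20 members had at least 1 count in at least 1 cow, and so had every other listed miRNA, so a family miRNA without any count is not in the list.

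The EVs came from the milk of 6 Holstein cows in mid lactation (101 ± 10 days in milk, 574 ± 36 kg body weight, 32 ± 2 kg milk per day), all housed in climate-controlled chambers. The 3 control cows ate a total mixed ration (TMR), and the 3 replacement cows ate a feed that had whole cotton seed and soybean hull instead of some of its alfalfa hay. Each cow gave 1 small RNA library, made from RNA of EVs that were precipitated with a commercial exosome isolation kit. The question was how the diet changes the miRNAs that milk EVs carry.

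A miRNA is a short RNA that pairs with messenger RNAs mainly through its seed, bases 2 to 8 from its 5′ end, and lowers their translation or stability. miR-2284 and miR-2285 were first described in cattle and have many gene copies in the genomes of cattle and other ruminants, while no human or mouse miRNA carries these names. Milk EVs are membrane vesicles that cells of the udder release into milk, and they carry miRNAs of those cells.

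The sequences below, as the deposited table lists them with T for U and with the seed in capitals, are the 6 members with at least 30 counts and the 1 member that shared a seed with one of them. They show how close the miR-2285 members were to each other, and how far the miR-2284 members stood from them.
bta-miR-2285bc: aAAAACCTgaatgacccttttgg
bta-miR-2285ce: gAAAACCTgaatgaactttttga
bta-miR-2285f: aAAACCTGaatgaactttttgg
bta-miR-2285k: aAAACCGGaatgaactttttg
bta-miR-2285n: aAAAACCCgaatgaacttttgg
bta-miR-2284f: aAAGTTCGttcggatttttc
bta-miR-2284x: tGAAAAGTtcgttcgggtttt

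The 20 members had 20 distinct sequences and 19 distinct seeds. The 1 shared seed was AAAACCT, carried by bta-miR-2285bc and bta-miR-2285ce, which together had 194 counts. None of the 256 other known miRNAs had the seed of a member (0 of 256), so by the seed alone no better known miRNA of the list was placed with either family. The members were poor in G and C, with 36.5% ± 4.97 (SD over 20 members) against 48.8% ± 11.4 (SD over 256) in the other known miRNAs. The first base was A in 15 of 20 members (75%) and in 26.2% of the other known miRNAs.

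The letters GAACTTTT stood in 11 of the 15 miR-2285 members, in 0 of the 5 miR-2284 members, in 0 of 256 other known miRNAs and in 1 of 503 predicted miRNAs. Read on the other strand as AAAAGTTC, the run was found in 1 miRNA of the whole list, bta-miR-2284x. bta-miR-2285bc, the member with the most counts, was among the 4 miR-2285 members without these letters. The letters GTTCG, searched on the listed strand, stood in 4 of 5 miR-2284 members, in 1 of 15 miR-2285 members (bta-miR-2285ak-5p) and in 3 of 256 other known miRNAs. The letters were chosen from the listed sequences, so their excess in the members is no independent result. These matches describe the letters and are not sites of any factor.

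The likeness of sequences was counted as edits, the bases that must be exchanged, inserted or removed to turn one sequence into another. The nearest other member was a median of 3 edits away (range 2 to 9), and 13 of 20 members had another member within 3 edits. The nearest known miRNA outside the families was a median of 9 edits away (range 7 to 10). Over the 10 pairs of miR-2284 members the median was 6 edits, and over the 105 pairs of miR-2285 members it was 5 edits (range 2 to 15). The wide range came with 2 miR-2285 members. bta-miR-2285af was 13 to 15 edits from each other miR-2285 member and 9 to 15 from the miR-2284 members. bta-miR-2285ak-5p was 12 to 15 edits from each other miR-2285 member and 4 to 7 from the miR-2284 members, so by sequence it stood nearer to the family whose name it does not carry. Of the 105 pairs, 26 were closer with 1 of them reversed and complemented, and all 26 held one of these 2 members. A miR-2284 and a miR-2285 member were a median of 12 edits apart as listed, but 9 edits apart when 1 of them was read as its reverse complement, and 52 of the 75 such pairs were closer that way. By the nearest miR-2285 member, the reverse complement was closer for bta-miR-2284x (3 edits against 6) and bta-miR-2284ab (6 against 7). It was not closer for bta-miR-2284f (6 against 4), bta-miR-2284ac (9 against 6) and bta-miR-2284w (6 against 6). The nearest as listed was bta-miR-2285ak-5p in each case.

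The closest such pair was bta-miR-2284x and bta-miR-2285bg, 3 edits apart. Written with the run they share in capitals, 18 bases of the 21 in the first and of the 20 in the second are the same.
bta-miR-2284x, reverse complement: aAAACCCGAACGAACTTTTca
bta-miR-2285bg, as listed: AAACCCGAACGAACTTTTtg

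In RefSeq's gene table of the build ARS-UCD2.0, MIR2284X lay within the span of TIAM1 and MIR2285BG within that of PTPRD. The 2 names are thus annotated as separate genes there. From which place or strand their reads came was not tested. bta-miR-2285bg was detected with 5 counts in control cow 2 alone, and bta-miR-2284x in control cow 3 and replacement cow 3, so in no cow were both detected.

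**Figure D1:**
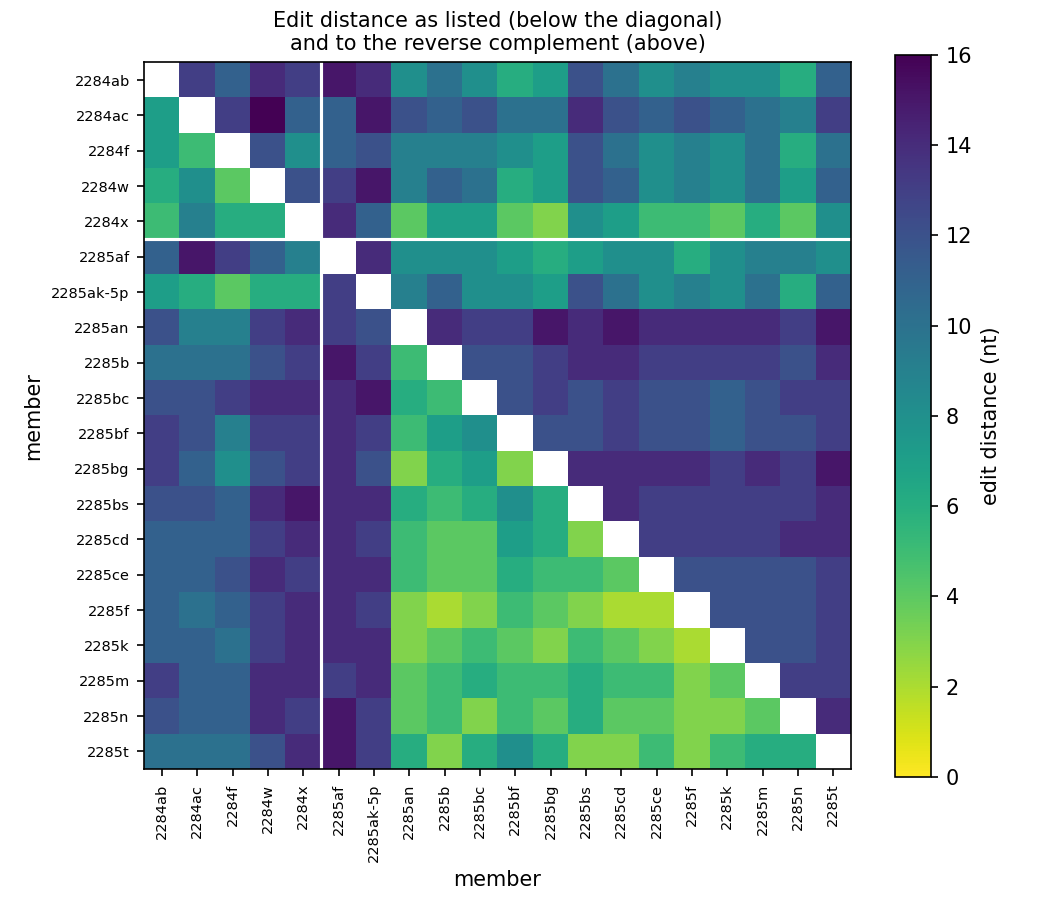
Edit distance in nt between each pair of the 20 members, as listed below the diagonal and to the reverse complement of the other member above it. White lines separate the 5 miR-2284 members from the 15 miR-2285 members. Pairs within miR-2285 had a median of 5 edits as listed, and pairs of a miR-2284 with a miR-2285 member had a median of 12 edits as listed and 9 to the reverse complement.

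The families are far larger in the genome than in the list. The RefSeq table held 191 genes with 138 miR-2284 or miR-2285 names, 43 genes of miR-2284 and 148 of miR-2285, on 30 chromosomes. They were 18.5% of its 1032 miRNA genes. All 20 members matched a gene by name, and the listed members were 14.5% of the names of both families. Of the 191 genes, 125 (65.4%) lay within the span of a protein-coding gene, and of the 38 genes of the listed members 27 did. The share of names listed and the share within such spans were not worked out for other miRNAs. Neither is therefore given as particular to these families. MIR2285BC lay within ORC1, a subunit of the complex that marks origins of DNA replication. MIR2285F-1, 1 of 2 copies, lay within TBK1, a kinase of innate antiviral signalling, and MIR2284F within SLC24A4, a sodium, potassium and calcium exchanger. The name bta-miR-2285n stands for 7 gene copies and bta-miR-2285k for 5, so counts of such a member cannot be assigned to 1 gene. Of 6 overlapping pairs among the 191 genes, 4 paired a miR-2284 with a miR-2285 gene, such as MIR2284H with MIR2285O-5, and no listed member belonged to these 4 pairs.

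Libraries held between 61156 and 176919 counts of known miRNAs. A miRNA with no count in a cow could still hold up to 0.0017% to 0.0049% of them, which is what 3 counts make up in the deepest library (replacement cow 1) and in the shallowest (control cow 3). Reads copied by PCR are not separate molecules, so intervals and limits cover counting error only. Markers of leukocytes held 2.00% to 3.18% of known miRNA counts over the cows (8 of 8 listed), markers of mammary epithelium 0.441% to 1.1% (9 of 10 listed) and markers of red blood cells 6.71% to 20.8% (8 of 8 listed), the last highest in control cow 3. Their part in the results was not tested.

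Both families together received 51, 200 and 57 counts in control cows 1 to 3 and 80, 64 and 122 counts in replacement cows 1 to 3, 574 counts in all. As a share of the counts of known miRNAs, this was 0.0724%, 0.124% and 0.0932% in the control cows, against 0.0452%, 0.0665% and 0.175% in the replacement cows. The families were thus a minor part of the known miRNAs in every cow, and the lowest and the highest shares were both on the replacement diet. The 95% Wilson interval was 0.0363% to 0.0563% in replacement cow 1 and 0.147% to 0.209% in replacement cow 3, so these 2 cows differed by more than counting error. The mean share was 0.0961% ± 0.0471 (SD, n = 6 cows). The 46 other known miRNAs with numbers as high as those of the families or higher (late-numbered below, since miRBase gives numbers in order of discovery) held 1.44% ± 0.388 (SD, n = 6).

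By diet, control cows had a share of 0.0965% ± 0.0260 (SD, n = 3) and replacement cows one of 0.0956% ± 0.0697 (SD, n = 3). The difference of -0.00089 percentage points was much smaller than the spread between cows, and the ranges of the diets overlapped. Its sign rested on single cows: without replacement cow 3 it was -0.0407 points and without replacement cow 1 it was 0.0243 points. No test was made on this sum over a chosen list.

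The 2 families were not highest in the same cows. miR-2284 members had 4, 10 and 8 counts in the control cows, against 26, 0 and 72 in the replacement cows, and miR-2285 members had 47, 190 and 49 counts in the control cows, against 54, 64 and 50 in the replacement cows. In counts, miR-2284 names held from 0% of the families in replacement cow 2 to 59.0% in replacement cow 3, and 20.9% over all cows. As shares of known miRNA counts, miR-2284 held 0.0083% ± 0.0041 (SD, n = 3) under the control and 0.0394% ± 0.0559 (SD, n = 3) under the replacement diet, and miR-2285 held 0.0882% ± 0.0265 and 0.0563% ± 0.0225 (SD, n = 3 each). For both families the ranges of the diets overlapped. The higher miR-2284 mean of the replacement diet rested on replacement cow 3, without which it was 0.0073%, below that of the control diet.

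**Figure D2:**
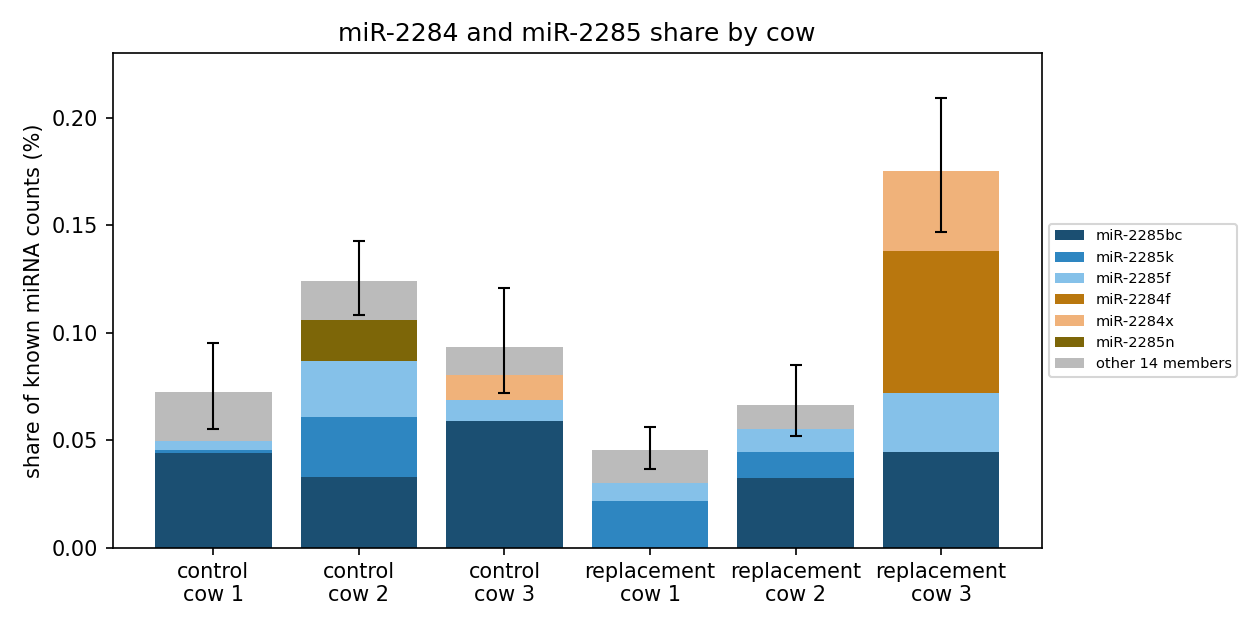
Share of known miRNA counts (%) held by the miR-2284 and miR-2285 families in each cow, stacked by the 6 members with at least 30 counts and the other 14 members. Error bars are the 95% Wilson interval of the whole bar. miR-2285bc is the lowest block in 5 cows and has no block in replacement cow 1, and miR-2284f and miR-2284x make up most of the bar of replacement cow 3.

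Levels of members are given as counts per 100000 counts of known miRNAs. Counts of mature miRNAs need no correction for length, since a read covers the whole miRNA.

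bta-miR-2285bc was the leading member, with 44.0, 32.9 and 58.9 per 100000 in the control cows, against 0, 32.2 and 44.5 in the replacement cows, a mean of 35.4 ± 19.9 (SD, n = 6). It had 182 counts, 31.7% of all family counts, and ranked 93 among the 276 known miRNAs by mean share. The 5 cows with counts lay between 32.2 and 58.9 per 100000, and replacement cow 1 stood apart with 0 of 176919 counts although it was the deepest library. The measured level of the lowest other cow, 32.2 per 100000, was 19.0-fold above the limit of 1.70 per 100000 in replacement cow 1. This ratio leaves out the counting error of the measured level.

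bta-miR-2285f was the 1 member with counts in all 6 cows, with 4.26, 26.0 and 9.81 per 100000 in the control cows, against 8.48, 10.4 and 27.3 in the replacement cows. Its mean was 14.4 ± 9.77 (SD, n = 6), and each diet had 1 cow near 26 to 27 and lower ones beside it. It was within 2 edits of bta-miR-2285b, bta-miR-2285cd, bta-miR-2285ce and bta-miR-2285k. The treatment of reads that match more than 1 miRNA is not given in the sources used here, so the split of counts among these close members is uncertain.

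bta-miR-2285k had 1.42, 27.9 and 0 per 100000 in the control cows, against 21.5, 12.5 and 0 in the replacement cows, a mean of 10.5 ± 12.1 (SD, n = 6). It was thus not detected in 1 cow of each diet at this depth and led the families in replacement cow 1. The predicted miRNA novel427_mature, 2 edits from bta-miR-2285k and with the same seed, had 0, 8 and 1 counts in the control cows, against 13, 1 and 0 in the replacement cows. Its 23 counts were highest in the same 2 cows as those of bta-miR-2285k. Its sequence is shown here for its likeness to bta-miR-2285k, and whether it belongs to the families was not tested.
novel427_mature: aAAACCGGaatgaattttttga

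A second predicted miRNA, novel523_mature, had the seed of bta-miR-2285n and was 1 edit from bta-miR-2285bc, with 1 count in replacement cow 2. No other predicted miRNA had the seed of a member.

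bta-miR-2284f had 46 counts, all in replacement cow 3, where its level was 66.1 per 100000 (95% Wilson interval 49.5 to 88.1). This was the highest level of any member in any cow, and the other 5 cows had no count. The measured level of bta-miR-2284f there was 13.5-fold above the highest limit of the other cows, 4.91 per 100000. That ratio leaves out the counting error of the measured level. bta-miR-2284x had 7 counts in control cow 3 and 26 in replacement cow 3, levels of 11.4 and 37.3 per 100000, and no count in the other 4 cows. Together bta-miR-2284f and bta-miR-2284x gave all 72 miR-2284 counts of replacement cow 3, and their sequences were 6 edits apart with different seeds.

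The other miR-2284 members were low. bta-miR-2284ac had 1, 5 and 1 counts in the control cows, against 11, 0 and 0 in the replacement cows. bta-miR-2284ab had 3 counts in control cow 1 and 8 in replacement cow 1, and bta-miR-2284w had 5 counts in control cow 2 and 7 in replacement cow 1. All 3 were thus detected in replacement cow 1 and in no other replacement cow.

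Of the remaining miR-2285 members, bta-miR-2285n had 31 counts in control cow 2 and none elsewhere, a level of 19.2 per 100000. This measured level was 3.92-fold above the highest limit of the other cows, a ratio that leaves out its counting error. bta-miR-2285bf had 10 counts in control cow 1 and 1 in control cow 3. bta-miR-2285ce had 12 counts in control cow 2, and bta-miR-2285af had 7 counts in replacement cow 2. The last 8 members, all miR-2285, had 1 to 5 counts each and were each detected in 1 cow.

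**Figure D3:**
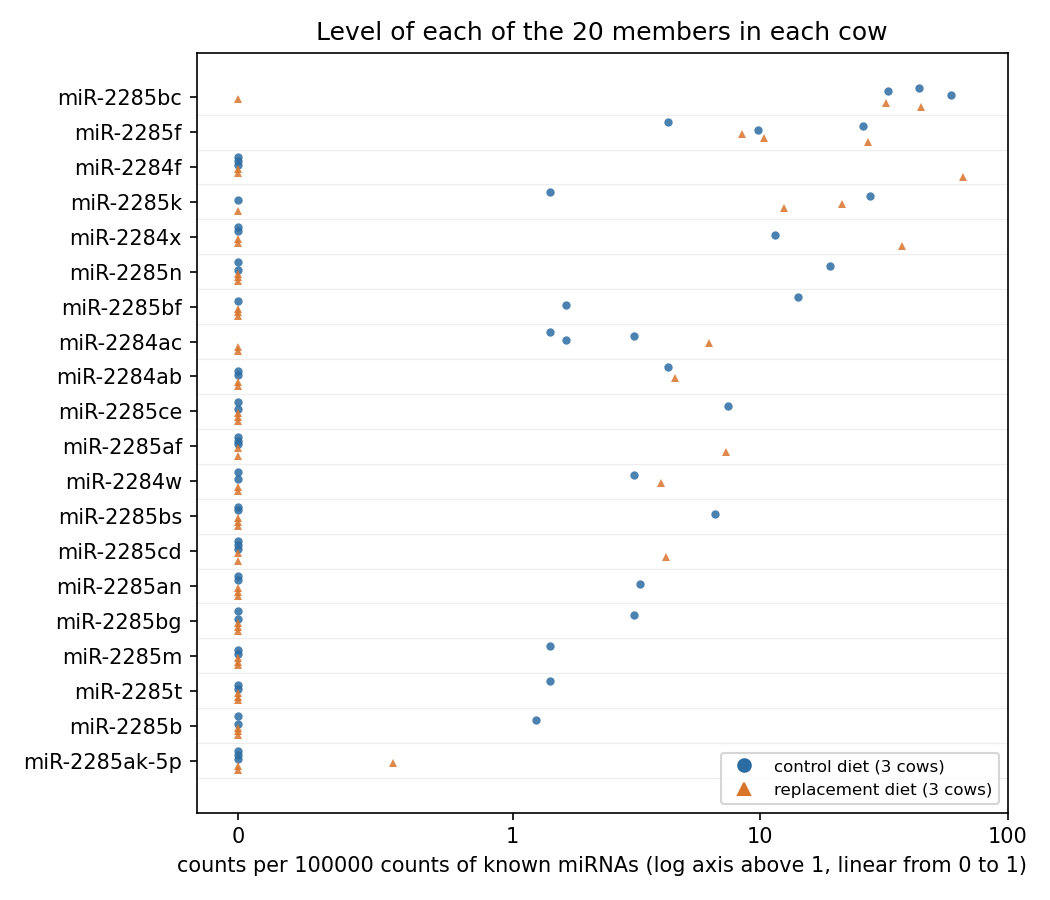
Level of each of the 20 members in each cow, in counts per 100000 counts of known miRNAs on an axis that is linear from 0 to 1 and logarithmic above, with circles for the 3 control cows and triangles for the 3 replacement cows. Only miR-2285f has no cow at 0, and 12 members have a single cow above 0.

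The families were held by few members. The 6 members with at least 30 counts had 483 of 574 counts (84.1%), and 8 members had 5 counts or fewer. Within a cow the leading member held 47.3% ± 13.9 (SD, n = 6) of the family counts and the leading 3 held 81.6% ± 6.12 (SD, n = 6). In each cow 4 or 5 members held 90% of the counts, while over the pooled counts of all cows 9 members were needed. The members that led were thus partly different ones in different cows.

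bta-miR-2285bc led in 4 cows, with 60.8%, 26.5% and 63.2% of family counts in the control cows and 48.4% in replacement cow 2. bta-miR-2285k led in replacement cow 1 with 47.5% (95% Wilson interval 36.9% to 58.3%), and bta-miR-2284f in replacement cow 3 with 37.7% (29.6% to 46.6%). The same member led in all 3 control cows, and a different one in each replacement cow. In control cow 2 this lead was within counting error. The 95% Wilson interval of bta-miR-2285bc there was 20.9% to 33.0%, with bta-miR-2285k at 22.5% and bta-miR-2285f at 21.0%.

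Of 20 members, 8, 9 and 7 were detected with at least 1 count in the control cows, against 6, 5 and 4 in the replacement cows. The mean was 8.0 ± 1.0 (SD, n = 3) for control and 5.0 ± 1.0 (SD, n = 3) for replacement cows, and the ranges did not overlap. With every library thinned to 61156 counts the expected numbers were 7.47, 8.34 and 7.0 on the control diet, against 5.25, 4.98 and 4.0 on the replacement diet, which still did not overlap. The order rested on single counts: with at least 2 counts required, the numbers were 4, 9 and 5 against 5, 5 and 4. With at least 10 counts they were 2, 5 and 1 against 3, 3 and 4, a mean difference of 0.667 members in the other direction.

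A lower number on the replacement diet was also seen outside these families. Of the 46 other late-numbered miRNAs, 18, 21 and 19 were detected on the control diet, against 17, 14 and 10 on the replacement diet. Of all 256 known miRNAs outside the families, 166, 174 and 174 were detected on the control diet, against 170, 136 and 138 on the replacement diet. After thinning, the latter ranged from 164.2 to 174 on the control and from 131.9 to 163.4 on the replacement diet. No test was made on these numbers.

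**Figure D4:**
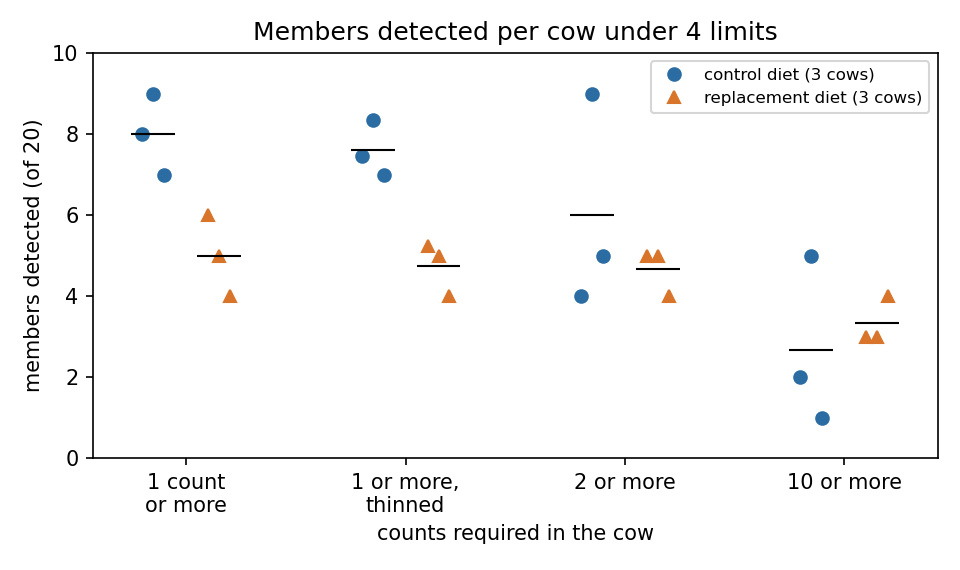
Number of the 20 members detected in each cow (y axis) with at least 1 count, with at least 1 count after thinning to 61156 counts, with at least 2 and with at least 10 counts (x axis), with circles for control and triangles for replacement cows and a line at the mean of each diet. The diets are apart at 1 count, with 7 to 9 against 4 to 6 members, and overlap at 2 and at 10 counts.

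Most members were found in a single cow. Of 20 members, 12 (60.0%) had counts in 1 cow, 4 in 2 cows, 0 in 3, 2 in 4, 1 in 5 and 1 in all 6. Of the known miRNAs outside the families 69 of 256 (27%) had counts in 1 cow and 102 (39.8%) in all 6. The 46 other late-numbered miRNAs were nearer to the families, with 24 (52.2%) in 1 cow and 4 (8.70%) in 6. Detection depends on the level, and the median of total counts was 11 in the families, 21 in the other late-numbered and 85.5 in the known miRNAs outside the families, so the spread over cows and the level cannot be told apart.

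Among the members found in 1 cow, 3 had at least 10 counts, bta-miR-2284f, bta-miR-2285n and bta-miR-2285ce, as did 10 of the 46 other late-numbered and 28 of the 256 other known miRNAs. By diet, 9 members were found in control cows alone, 4 in replacement cows alone and 7 on both diets. The other late-numbered miRNAs had 17, 11 and 18 of 46 in these classes, and all known miRNAs outside the families had 56, 29 and 171 of 256, so more names were found in control cows alone than in replacement cows alone there too.

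**Figure D5:**
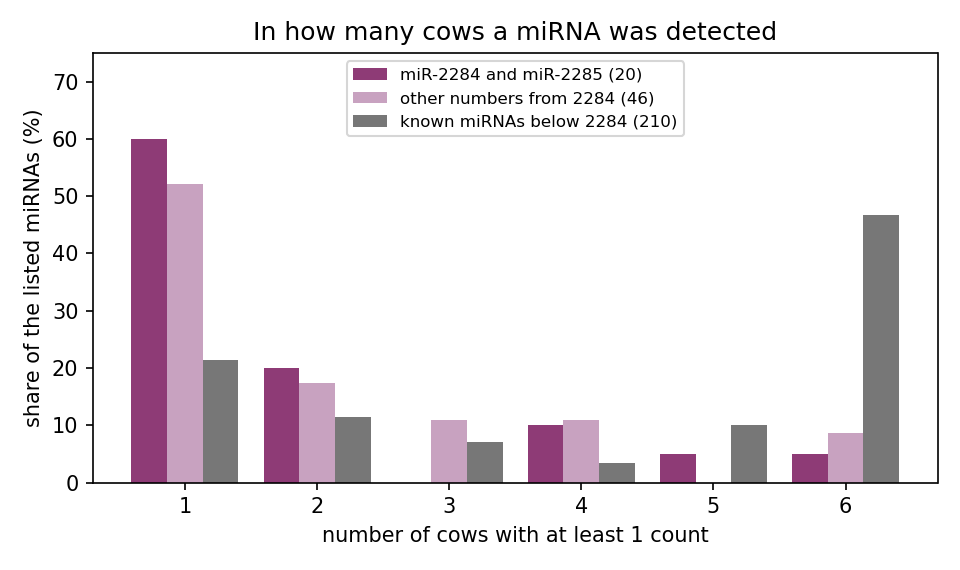
Share of the listed miRNAs (%) by the number of cows with at least 1 count, for the 20 members, the 46 other late-numbered miRNAs and the 210 known miRNAs with a lower number or a let-7 name. The families and the other late-numbered miRNAs peak at 1 cow (60.0% and 52.2%), and the remaining known miRNAs at all 6 cows (46.7%).

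Members were 20 to 23 nt long, with 2 of 20 nt, 6 of 21 nt, 9 of 22 nt and 3 of 23 nt. Their counts were spread differently, with 34.5% at 23 nt, where bta-miR-2285bc lies, 29.6% at 21 nt, 27% at 22 nt and 8.89% at 20 nt. In the other known miRNAs 22 nt was the most common length, in 48.8% of them. The 5 miR-2284 members had a mean of 21.0 nt and the 15 miR-2285 members 21.87 nt, against 22.12 nt in the 256 other known and 19.39 nt in the 503 predicted miRNAs.

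Weighted by counts, the mean length of the families was 22.33, 22.03 and 22.49 nt in the control cows, against 21.34, 22.25 and 21.29 nt in the replacement cows. The spread over cows was 0.520 nt (SD, n = 6), against 0.049 nt in the other known miRNAs, whose mean was 22.31 nt. The lowest values belonged to replacement cow 1, which had no count of the 23 nt bta-miR-2285bc, and replacement cow 3, in which the 20 nt bta-miR-2284f led. The diets overlapped.

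Diets were compared per miRNA on the counts with the quasi-likelihood test of edgeR. Of 227 known and predicted miRNAs with enough counts, 0 (0%) had a Benjamini-Hochberg adjusted p under 0.05, and 8 (3.52%) had an unadjusted p under 0.05. With the other tools, limma-voom called 0 of 227 (12 at an unadjusted p under 0.05) and DESeq2 called 7 of 390, no member among them. In edgeR and limma-voom only 3 of the 20 members had enough counts to be tested, bta-miR-2285bc, bta-miR-2285f and bta-miR-2285k. None of these had an unadjusted p under 0.05 in edgeR (0 of 3). DESeq2 gave an adjusted p for 5 members, these 3 and bta-miR-2284f and bta-miR-2284x. In DESeq2 bta-miR-2284f had a log2 fold change of 6.51 (SE 3.91, adjusted p = 0.50) and bta-miR-2284x one of 1.68 (SE 3.65, adjusted p = 0.94).

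bta-miR-2285bc had a log2 fold change of -0.998 (SE 1.46) for replacement against control, with an adjusted p of 0.986 in edgeR. Without replacement cow 1, which had no count, it was -0.42 (SE 0.86). bta-miR-2285f had a log2 fold change of -0.08 (SE 1.2, adjusted p = 0.986 in edgeR), and bta-miR-2285k one of 0.17 (SE 1.96, adjusted p = 0.986 in edgeR). The median log2 fold change of all 227 tested miRNAs was 0.03. With errors of over 1 on the log2 scale, differences of 2-fold, and also clearly larger ones, could go undetected for these members in either direction.

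In no member did the levels of the diets fail to overlap (0 of 20). In 13 of the 276 known miRNAs (4.71%) the 3 cows of one diet all lay above those of the other. A miRNA with counts in only 1 or 2 cows cannot do so. That applied to 16 of the 20 members and 101 of the 256 other known miRNAs, so the 0 of 20 was largely fixed beforehand. The 17 members that were not tested in edgeR had too few counts, or counts in too few cows, for its filter. Without that filter edgeR called 15 of all 779 miRNAs, 0 of the 276 known miRNAs and so 0 of the 20 members. With so few calls over all miRNAs, the 0 of 20 does not set the members apart. bta-miR-2284f had an adjusted p of 0.42 in this edgeR fit.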

How the data were processed

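Small RNA of milk EVs was sequenced in 6 Holstein cows, 3 per diet. According to the methods and the submitters' processing notes, the authors trimmed reads with Cutadapt 1.14, aligned them with Bowtie to the cow genome ARS-UCD1.2, removed other RNA with Rfam and annotated miRNAs with miRBase and miRDeep2. The counting tool, and its treatment of strand and of reads that match more than 1 miRNA, are not given in the sources used here. The authors deposited whole-number counts per mature miRNA with its sequence, and the same values as RPM under the name TPM. Dividing counts by these gave 1 total per cow, 12130660 to 13369168 reads. The authors' table of fold changes and p-values, with 6 columns of per-sample values, was not used.

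Members and lists were chosen with earlier results of these data known. Shares were taken of known miRNA counts per cow (61156 to 176919) and averaged with equal weight. Single values have 95% Wilson intervals, and 3 counts set the limit for no count. Thinned numbers are expectations of drawing without replacement. Diets were compared over all known and predicted miRNAs with edgeR 4.0.16 (R 4.3.3), by its quasi-likelihood test after TMM scaling and its default expression filter, with Benjamini-Hochberg adjusted p-values. The script was run on simulated data with large set changes and less spread between cows than here. That run does not show which differences these data could reveal. Alternative tools were limma 3.58.1 and DESeq2 1.42.0. Cows are separate animals. Cow numbers were not used as pairs. Edits are Levenshtein distances. Other work used Python 3.11.15, numpy 2.4.6, pandas 2.3.3, scipy 1.17.1 and matplotlib 3.10.9.

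The members named are the 12 with the highest mean share, those found in every cow, tested or called, and predicted or known miRNAs sharing a member's seed. Names added once values had been seen were bta-miR-2285bg, bta-miR-2285b, bta-miR-2285cd and bta-miR-2285ak-5p. Motifs were chosen from the listed sequences. Gene names and spans come from RefSeq's table of ARS-UCD2.0, a build other than the authors', so no coordinates are given. Alternatives were another total, the deposited RPM, pooled counts, the median over cows, each family alone, other detection limits, other tools, normalizations and filters, the cow number as a block, and each cow left out in turn. Marker lists were of red blood cells, leukocytes and mammary epithelium.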

Additional observations from a re-analysis of the deposited data

Results flagged for a closer look

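Of 18 values checked over the 6 cows, 7 had 1 cow apart from the other 5 by the ratio of Dixon's test, which marks about 5% of groups by chance when values vary evenly. That rate is no guide here. A member with counts in 1 cow alone stands apart by construction, which holds for 4 of the 7 (bta-miR-2284f, bta-miR-2285n, bta-miR-2285ce and bta-miR-2285af), the members were named by a mean that 1 high cow can carry, and the values share cows and counts. They are given as a description. In replacement cow 3 the miR-2284 share was 0.103% of known miRNA counts, with 0.0147% in the nearest cow. The level of bta-miR-2284f there was 66.1 per 100000 with no count in the other cows, and that of bta-miR-2284x was 37.3, with 11.4 in the nearest cow. In control cow 2 bta-miR-2285n had 19.2 and bta-miR-2285ce 7.44 per 100000, with no count elsewhere. bta-miR-2285bf had 14.2 per 100000 in control cow 1 and 1.64 in the nearest cow, and bta-miR-2285af had 7.27 in replacement cow 2 and no count elsewhere.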

How the results depend on the processing

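The mean family share of 0.0961% became 0.0256% of all known and predicted miRNA counts and 0.0238% for miR-2284 alone, and was 0.0803% to 0.106% with each cow left out. The difference between diets, -0.00089 points, was 0.0071 points with all miRNAs as the total and -0.0407 to 0.0243 with each cow left out. For miR-2284 alone the difference was -0.00097 to 0.0507 points with each cow left out (added after seeing the data), below 0 without replacement cow 3. Members detected per cow, 6.5 on average, were 3.0 with at least 10 counts, where the difference between diets was 0.667 members (limits for this difference were added after seeing the data). With each cow left out they were 6.0 to 7.0 and the difference -3.5 to -2.5. The leading member's share was 31.7% in pooled counts and 44.2% to 51.5% with each cow left out, and the mean length 21.8 to 22.1 nt. miRNAs called by diet numbered 15 of 779 without the filter on low counts in edgeR, 7 in DESeq2, 0 to 1 with each cow left out (1 without control cow 2 and 1 without control cow 3) and 0 with the other normalizations. In all of these 0 members were called.

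The log2 fold change of bta-miR-2285f, -0.08, was 0.50 with library size alone (which moved the median of all miRNAs to 0.63), 0.10 with DESeq2 size factors, 0.053 in DESeq2, 0.081 in limma-voom, and -0.59 to 1.24 with each cow left out (0.08 without replacement cow 1, 0.09 without replacement cow 2 and 1.24 without control cow 2). That of bta-miR-2285k, 0.17, was -0.42 without control cow 1, -0.48 without control cow 3, -0.97 without replacement cow 1 and 4.19 without control cow 2. That of bta-miR-2285bc ranged from -2.86 in limma-voom to -0.30 with library size alone. For these 3 members the adjusted p ranged from 0.757 to 0.999 over the alternatives. bta-miR-2285f could not be tested among known miRNAs alone, where it missed the filter.

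Cows with the same number correlated at -0.11, -0.16 and 0.18 across 227 miRNAs in their deviations from the diet means. Cows of the 2 diets with different numbers correlated at -0.26 to 0.32. So few values cannot show whether cows were paired, and the numbers were not taken as pairs. With the cow number as a replicate block, 0 miRNAs and 0 members were called, and the log2 fold changes were -1.87 for bta-miR-2285bc, 0.44 for bta-miR-2285f and 1.06 for bta-miR-2285k. The differences in share (-0.00089 points) and in members detected (-3.0) are the same under the block. The causes of these shifts were not tested. With 574 family counts in all, a member under 3 counts in a cow could not be told from one at 0.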
